A study of Homo sapiens with 33 samples.

Results

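Imprinted genes are transcribed from the allele of 1 parent, and 10 of them are described here: H19, IGF2, PLAGL1, DLK1, MEG3, PEG10, SNRPN, MEST, PEG3 and NNAT. They were taken by name from both tables, and were chosen with earlier results of these data known. Counts of members set beside shares of all genes are therefore descriptions and not tests of an excess. All 10 were among the 35805 genes of the RNA sequencing (RNA-seq) table and among the 35683 gene names of the chromatin immunoprecipitation sequencing (ChIP-seq) table, where they held 97 of 153956 windows around start sites.

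RNA-seq covered SSEA4-positive, flow-sorted H9 human ESCs of 4 genotypes with 3 libraries each: EZH2+/+ (WT below, the parental line), EZH2-/+ (Het), EZH2-/- (Null) and EZH2-/- +EZH2 (Null+EZH2). EZH2 is the methyltransferase of Polycomb repressive complex PRC2, which places H3K27me3, a histone mark of repressed genes. Alleles were disrupted by CRISPR/Cas9 in clonal lines, and homozygous lines were made from a Het line that carried a DOX-inducible EZH2 transgene on a piggyBac transposon. Null and Null+EZH2 ESCs differ in the induction of that transgene. Null ESCs differ from WT and from Het ESCs in clonal history as well. Clone and genotype therefore cannot be told apart in comparisons with WT or Het ESCs. ChIP-seq gave 1 column for each of H3K27me3, H3K4me3, H3K27ac, H3K4me1 and input in each genotype, which the labels describe as 2 replicates and the methods as the average of 3, and 1 EZH2 column from WT ESCs alone. The RNA-seq libraries are given as biological replicates of each line, so p values measure the spread within a line and not that between clones.

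In most tissues imprinting rests on DNA methylation at imprinting control regions, set in 1 parental germline and kept after fertilization by factors such as the zinc finger protein ZFP57, which binds a methylated motif. H19 and MEG3 are maternally expressed non-coding RNAs. The other members are known as paternally expressed, and several of them act on fetal growth. At some imprinted loci PRC2 also marks the silent allele, and neither assay used here separates the parental alleles.

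The RNA-seq values were RPM, read counts scaled to the size of the library, and 16587860 to 36589089 reads per library lay on genes. A floor of 3 reads corresponded to between 0.0528 and 0.12 RPM. EZH2 transcripts were at 59.5 to 68.6 RPM in WT, 45.7 to 55.4 RPM in Het, 8.65 to 11.5 RPM in Null and 256 to 385 RPM in Null+EZH2 libraries. The summed level of 8 markers of undifferentiated ESCs was 3100 to 4110 RPM in all 12 libraries. By the test given below, in Null relative to WT ESCs 5 of them rose (NANOG from a mean of 22.2 to 88.1 RPM) and 2 fell (SOX2 from 224 to 109 RPM, and PODXL). Over all genes 12.6% rose and 18.8% fell. In Null+EZH2 relative to WT ESCs 4 rose (NANOG to a mean of 65.8 RPM) and 1 fell, where 3.4% of all genes rose and 6.9% fell. Between Null and Null+EZH2 ESCs 0 of the 8 passed, against 3.15% of all genes. Summed over 6 endoderm markers, the level was 162 to 465 RPM in Null libraries, 22.5 to 49 RPM in WT and 23.3 to 54.7 RPM in Null+EZH2 libraries. In Het libraries that sum was 69.2, 453 and 14 RPM, so that Het library 2 reached the Null range. For 4 neuroectoderm markers the sum was 8.13 to 20 RPM in WT and 3.28 to 5.57 RPM in Het libraries. It was 2.01 to 2.78 RPM in Null and 1.47 to 2.33 RPM in Null+EZH2 libraries. Of the 3 tested, 2 fell and 1 did not pass, in Null as in Null+EZH2 relative to WT ESCs. In bulk RNA, fewer cells of a type and less RNA per cell cannot be told apart.

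RefSeq promoters on GRCh38.p14, each running from 250 bases before to 50 bases after a start site, were matched by symbol for 5 of the 10 members, 18 promoters in all. Of these, 6 are shown because they carry the contrast described below between start sites where the RPM of H3K27me3 fell and start sites where it did not. Capitals mark every CpG and every match to the hexamer TGCCGC on either strand, the motif bound by ZFP57 when methylated. The hexamer was in 10 of the 18 promoters, and in 5878 of all 35116 promoters of this length in the table, 16.7%. Some of the 18 overlap and hold the same match, so that they stand for 14 separate regions, 6 of them with a match, and for 10 distinct matches. The hexamer itself holds a CpG. The share over all promoters was neither matched for CpGs nor merged for overlap, so it is not a like set.
PLAGL1 upstream promoter, chr6:144064550-144064849, minus strand: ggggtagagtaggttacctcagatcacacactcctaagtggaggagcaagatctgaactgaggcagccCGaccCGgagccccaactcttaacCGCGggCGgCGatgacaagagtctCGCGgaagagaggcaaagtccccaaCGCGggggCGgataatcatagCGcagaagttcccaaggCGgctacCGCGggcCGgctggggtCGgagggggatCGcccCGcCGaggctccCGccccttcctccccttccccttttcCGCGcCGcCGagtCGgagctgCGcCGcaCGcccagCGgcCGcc
PLAGL1 inner promoter, chr6:144008210-144008509, minus strand: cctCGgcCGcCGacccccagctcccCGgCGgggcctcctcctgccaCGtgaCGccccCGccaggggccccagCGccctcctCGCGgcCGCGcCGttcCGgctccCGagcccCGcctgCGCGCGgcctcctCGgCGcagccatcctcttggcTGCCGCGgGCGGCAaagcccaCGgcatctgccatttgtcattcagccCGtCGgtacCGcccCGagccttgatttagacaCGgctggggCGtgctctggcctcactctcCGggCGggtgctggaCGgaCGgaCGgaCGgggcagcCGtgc
MEST, chr7:130491808-130492107, plus strand: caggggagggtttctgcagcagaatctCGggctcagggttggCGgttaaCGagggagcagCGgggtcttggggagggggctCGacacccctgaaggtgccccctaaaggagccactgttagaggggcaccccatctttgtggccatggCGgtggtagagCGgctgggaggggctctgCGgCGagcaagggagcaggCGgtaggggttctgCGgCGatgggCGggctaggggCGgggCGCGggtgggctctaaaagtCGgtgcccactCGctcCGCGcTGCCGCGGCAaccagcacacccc
MEG3, chr14:100825858-100826157, plus strand: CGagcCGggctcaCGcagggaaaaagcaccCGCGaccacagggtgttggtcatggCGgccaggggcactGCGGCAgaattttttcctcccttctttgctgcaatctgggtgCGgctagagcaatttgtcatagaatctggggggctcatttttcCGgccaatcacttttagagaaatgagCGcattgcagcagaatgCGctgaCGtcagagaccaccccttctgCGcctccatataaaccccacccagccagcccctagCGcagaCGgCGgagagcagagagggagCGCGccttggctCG
SNRPN, chr15:24954737-24955036, plus strand: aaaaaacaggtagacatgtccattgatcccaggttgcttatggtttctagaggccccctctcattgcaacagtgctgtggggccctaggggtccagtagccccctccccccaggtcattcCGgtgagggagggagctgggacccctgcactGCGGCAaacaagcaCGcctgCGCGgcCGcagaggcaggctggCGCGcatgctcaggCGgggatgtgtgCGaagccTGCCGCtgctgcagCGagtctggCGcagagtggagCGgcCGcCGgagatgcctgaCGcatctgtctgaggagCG
H19, chr11:2001217-2001516, minus strand: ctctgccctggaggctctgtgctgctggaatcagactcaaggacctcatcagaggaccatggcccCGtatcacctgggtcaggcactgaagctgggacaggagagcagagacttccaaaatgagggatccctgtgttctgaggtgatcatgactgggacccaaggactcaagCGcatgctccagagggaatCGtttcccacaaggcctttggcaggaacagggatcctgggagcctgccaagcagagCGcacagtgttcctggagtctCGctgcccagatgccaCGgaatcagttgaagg

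The inner promoter of PLAGL1 held 39 CpGs, and the hexamer on both strands. The upstream promoter of the same gene held 31 CpGs and no hexamer. Of the remaining 4, the MEST and SNRPN promoters, with 22 and 18 CpGs, held the hexamer on both strands, the MEG3 promoter, with 19 CpGs, held it once, and the H19 promoter, with 6 CpGs, held none. The H19 promoter shown lies near an upstream start site at 2001470. No promoter was matched near the start site at 1997875, around which 11 of the 12 windows of H19 lie. The median over all promoters was 14 CpGs. A match describes the letters and is not a measured binding site.

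**Figure D1:**
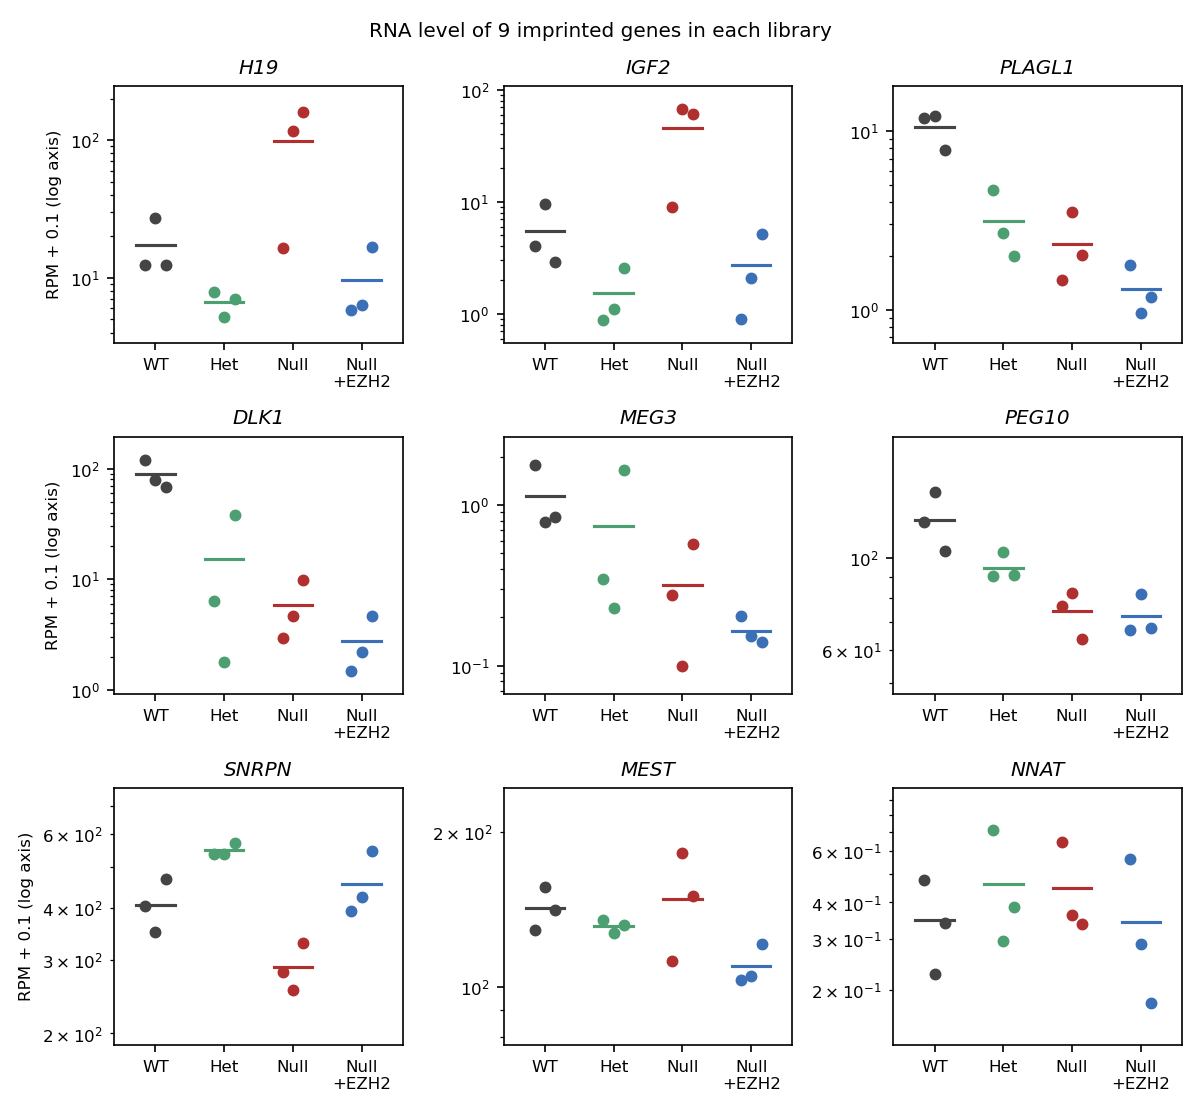
RNA level (RPM + 0.1, log axis) of 9 imprinted genes in each of 12 libraries, with points for the 3 libraries of WT, Het, Null and Null+EZH2 ESCs and a bar at their mean. Each panel has its own range. H19 and IGF2 were highest in Null libraries 2 and 3, DLK1 and PLAGL1 were highest in the WT libraries, and PEG3, which had no read in any library, is not drawn.

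IGF2 and its neighbour H19 on chromosome 11 rose in Null ESCs, SNRPN fell, and the other members that differed from WT ESCs were lower in the restored ESCs as well. In Null relative to Null+EZH2 ESCs, 3 of the 9 members tested passed an adjusted p of 0.05 (limma, adjusted over all genes tested): 2 were higher and 1 lower. Over all 20608 genes tested, 3.15% passed, 2.63% higher and 0.524% lower. The libraries of both groups did not overlap for 2 members, against 23.2% of all genes. The median log2 fold change of the members was 0.62, and that of all genes 0.02.

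Between Null and WT ESCs 7 of the 9 passed, 2 higher and 5 lower, where 31.4% of all genes passed, 12.6% higher and 18.8% lower. With RPM rescaled by the median ratio, 15.9% of genes were higher and 14.2% lower, and 5 members passed, without MEG3 and SNRPN. The libraries did not overlap for 5 members, against 49.8% of genes. The median over all genes was itself -0.13 in this comparison, and that of the members -0.50. Relative to Het ESCs 3 passed in Null ESCs, 2 higher and 1 lower, against 18.5% of all genes, 10.3% higher and 8.25% lower. In Het relative to WT ESCs 1 passed, lower, against 1.15% of genes (37 higher and 199 lower, or 53 and 138 with the median ratio). In Null+EZH2 relative to WT ESCs 4 passed, all lower, against 10.3% of genes (3.4% higher and 6.9% lower, or 4.59% and 4.43% with the median ratio). These comparisons share libraries and do not bear on each other independently.

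**Figure D2:**
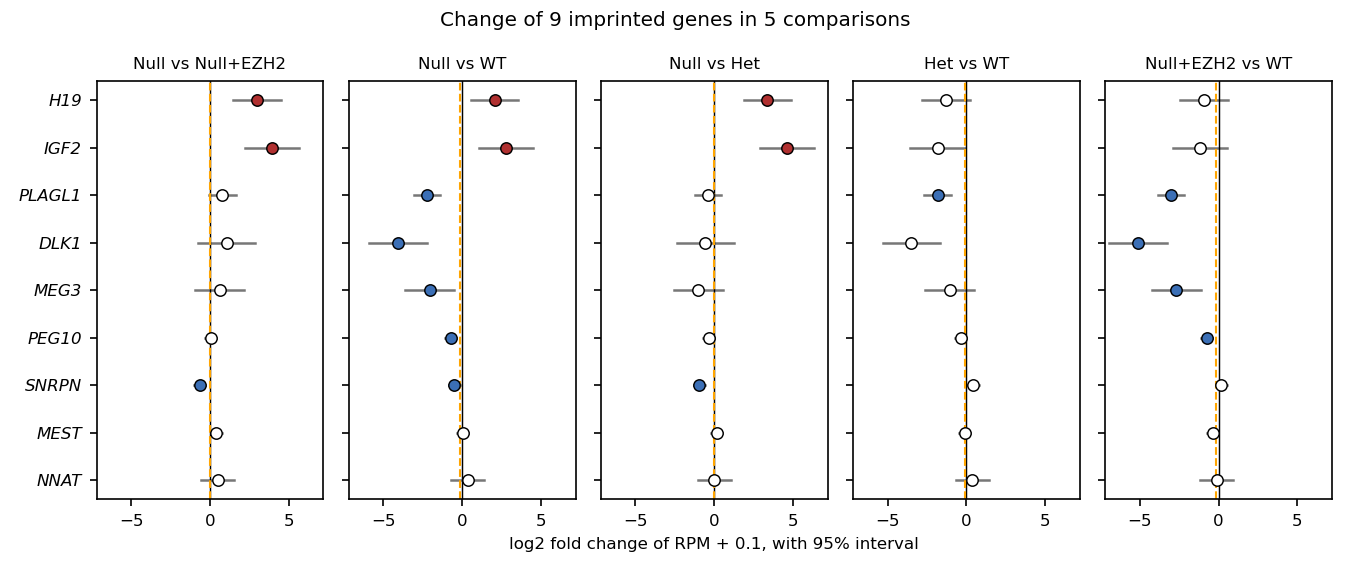
Log2 fold change of RPM + 0.1 (x axis) with its 95% interval for 9 imprinted genes in 5 comparisons. Filled points passed an adjusted p of 0.05 in limma, red for higher and blue for lower, and the dashed line is the median of all genes tested. H19 and IGF2 are red in the 3 comparisons of Null, and PLAGL1, DLK1, MEG3 and PEG10 are blue in both Null vs WT and Null+EZH2 vs WT.

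IGF2 encodes a fetal growth factor and lies on the minus strand of chromosome 11 from 2129112 to 2149603 (GRCh38). It was at 3.89, 9.53 and 2.82 RPM in WT libraries 1, 2 and 3, and at 0.784, 0.994 and 2.47 RPM in Het libraries. In Null libraries it was at 8.81, 66.8 and 60.2 RPM, and in Null+EZH2 libraries at 0.797, 1.98 and 5.08 RPM. Every Null library lay above every Het and Null+EZH2 library, but Null library 1 lay just below WT library 2. The fold change relative to Null+EZH2 ESCs was 15.5 (log2 3.95, standard error 0.79, adjusted p = 0.02 in limma), relative to Het ESCs 24.4 (adjusted p = 0.0018 in limma), and relative to WT ESCs 6.84 (adjusted p = 0.019 in limma). The call against Null+EZH2 was lost without Null library 2 or 3 or without Null+EZH2 library 1 or 2 (adjusted p from 0.067 to 0.11 in limma), and the call against WT without WT library 1 or 3 or Null library 2 or 3 (0.056 to 0.086). The call against Het held with each library left out. Without Null library 1 the log2 fold change was 5.55 relative to Het (4.61 with all libraries), 4.90 relative to Null+EZH2 and 3.72 relative to WT ESCs (2.77 with all libraries). Relative to Null+EZH2 ESCs it was 3.33 without Null+EZH2 library 1 and 4.59 without library 3, and relative to Het ESCs it was 3.90 with a pseudocount of 1 RPM. INS-IGF2, which overlaps IGF2 on the same strand and can share its reads, changed by 3.85 on the log2 scale relative to Null+EZH2 ESCs (adjusted p = 0.013 in limma).

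H19, a long non-coding RNA downstream of IGF2 under the same control region, lies on the minus strand from 1995163 to 2001470. Its levels were 12.4, 27.1 and 12.4 RPM in WT, 7.74, 5.1 and 6.92 RPM in Het, 16.3, 117 and 160 RPM in Null, and 5.71, 6.22 and 16.7 RPM in Null+EZH2 libraries. Null libraries 2 and 3 stood above all others, while Null library 1 lay within the range of the WT libraries and just below Null+EZH2 library 3. The fold change was 7.92 relative to Null+EZH2 (log2 2.99, standard error 0.69, adjusted p = 0.037 in limma), 10.2 relative to Het (adjusted p = 0.0054 in limma) and 4.17 relative to WT ESCs (adjusted p = 0.039 in limma). The first call was lost without Null library 2 or 3 or Null+EZH2 library 1 or 2 (adjusted p from 0.1 to 0.2), and the last without WT library 1 or 3 or Null library 2 or 3 (0.11 to 0.16). Without Null library 1 the log2 fold change of H19 was 4.37 relative to Het (3.36 with all libraries), 4.00 relative to Null+EZH2 and 3.08 relative to WT ESCs (2.06 with all libraries), and without Null library 3 it was 2.73, 2.36 and 1.44 in the same order. With limma-voom on the recovered reads, neither H19 nor IGF2 passed against Null+EZH2 ESCs. In Het and Null+EZH2 ESCs neither gene passed a test against WT ESCs.

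H19 and IGF2 followed each other over the 12 libraries. Pearson r of their log2(RPM + 0.1) was 0.96, and 0.88 for deviations from the genotype means, which share the depth and makeup of each library. The genes most like H19 of 15481 with a mean of at least 1 RPM were ACTA2-AS1 (r = 0.97), ACTA2, the smooth muscle actin (r = 0.97), and IGF2. Those most like IGF2 were INS-IGF2, ACTA2-AS1 and ACTA2, each at r = 0.97. The summed level of 7 mesenchyme markers was 97.7, 349 and 215 RPM in Null libraries 1, 2 and 3 and 213, 304 and 303 RPM in WT libraries, and COL1A1 and COL1A2 made up most of it. Of the 6 markers tested, 3 rose in Null relative to WT ESCs, 1 fell (COL1A2), and the median log2 fold change was 2.01. COL3A1 was at 4.7, 109 and 47.8 RPM in Null libraries 1, 2 and 3 and at 0.153 to 3.96 RPM in WT libraries. LUM was at 0.369, 6.25 and 3.15 RPM in the Null libraries, and TWIST1 at a mean of 7.3 RPM in Null and 0.233 RPM in WT ESCs. COL3A1 and LUM were thus lowest in Null library 1, as H19 and IGF2 were. COL1A1, COL1A2 and TWIST1 were lowest there among the Null libraries too. POSTN went the other way, at 2.45, 1.43 and 1.13 RPM in Null libraries 1, 2 and 3, and DCN had at most 9 reads in a Null library. The part of other cell types in the levels of H19 and IGF2 was not tested.

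PLAGL1, a zinc finger transcription factor of the 6q24 locus, runs on the minus strand of chromosome 6 from 143940300 to 144064599. It was at 11.7, 12 and 7.76 RPM in WT libraries and lower in all others, at 4.6, 2.57 and 1.89 RPM in Het, 1.37, 3.4 and 1.93 RPM in Null, and 1.67, 0.858 and 1.08 RPM in Null+EZH2 libraries. The decrease from WT ESCs was 4.75-fold in Null (log2 -2.25, standard error 0.38, adjusted p = 0.0011 in limma) and 8.24-fold in Null+EZH2 ESCs (adjusted p = 0.00075 in limma). PLAGL1 was the member that passed in Het relative to WT ESCs, 3.55-fold lower (adjusted p = 0.041 in limma). That call ended without any 1 of the WT libraries, or without Het library 2 or 3 (adjusted p from 0.052 to 0.21), whereas the calls in Null and Null+EZH2 ESCs held under every alternative. With a pseudocount of 1 RPM the log2 fold change in Null+EZH2 ESCs was -2.38, against -3.04 with 0.1 RPM. Relative to Null+EZH2 ESCs the log2 fold change in Null ESCs was 0.80, with a 95% interval of the fold from 0.974 to 3.09.

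DLK1 and MEG3 are reciprocally imprinted neighbours on the plus strand of chromosome 14. DLK1, a transmembrane protein of the Notch ligand family that opposes adipocyte differentiation, runs from 100725705 to 100738224. It was at 119, 78.8 and 67.6 RPM in WT libraries. In Het libraries it was at 6.27, 1.71 and 37.9 RPM, in Null libraries at 2.83, 4.54 and 9.74 RPM, and in Null+EZH2 libraries at 1.39, 2.09 and 4.52 RPM. All 9 libraries of the edited lines lay below every WT library, and Het library 3 stood apart from the other 8. The decrease was 16.8-fold in Null (log2 -4.07, standard error 0.84, adjusted p = 0.0034 in limma) and 34.9-fold in Null+EZH2 ESCs (adjusted p = 0.003 in limma), and both held under every alternative. In Het ESCs the log2 fold change was -3.50 (adjusted p = 0.078 in limma, 0.019 with the replicate block and 0.0033 without Het library 3). Null and Null+EZH2 ESCs did not pass a test against each other (log2 fold change 1.05, 95% interval of the fold 0.587 to 7.31). In the 9 libraries of the edited lines the summed level of 4 neuroectoderm markers was also below that in every WT library. Its highest value in Het libraries, 5.57 RPM, was in library 3. The part of cell state in the levels of DLK1 and PLAGL1 was not tested.

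MEG3, a long non-coding RNA, runs from 100779410 to 100861031 and was near the floor. Its levels were 1.67, 0.685 and 0.743 RPM in WT and 0.245, 0.13 and 1.55 RPM in Het libraries. The Null libraries held 10, 0 and 16 reads (0.176, 0 and 0.475 RPM), and the Null+EZH2 libraries 4, 2 and 1 reads. Het library 3 was high for MEG3 as it was for DLK1. The fitted log2 fold change relative to WT ESCs was -2.07 in Null (adjusted p = 0.044 in limma) and -2.69 in Null+EZH2 ESCs (adjusted p = 0.032 in limma). At these counts both values depend on the pseudocount: with 1 RPM they were -0.72 and -0.90 and neither call remained, and with limma-voom on recovered reads they were -3.45 and -3.57. The first was -1.40 without Null library 2 and -2.66 without Null library 3. Leaving out 1 library ended the first call for any WT library and Null libraries 1 and 2 (adjusted p from 0.07 to 0.19), and the second for any library of both genotypes (0.059 to 0.13). Over the 12 libraries r was 0.86 between MEG3 and DLK1, and 0.73 within genotypes. Most like DLK1 were CDKN1B (r = 0.97), BOC (r = 0.97) and TNFRSF19 (r = 0.96), and most like MEG3 were KIF19, TTYH2 and H1FX (r from 0.94 to 0.95).

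PEG10 derives from a retrotransposon and lies on the plus strand of chromosome 7 from 94656325 to 94669695. It was at 122, 144 and 104 RPM in WT, 90.1, 103 and 90.8 RPM in Het, 76.6, 82.4 and 63.6 RPM in Null, and 67.1, 81.6 and 67.8 RPM in Null+EZH2 libraries. The Null and Null+EZH2 libraries overlapped each other and lay below all WT and Het libraries. The decrease from WT ESCs was 1.65-fold in Null (adjusted p = 0.004 in limma) and 1.70-fold in Null+EZH2 ESCs (adjusted p = 0.0087 in limma), and both held under every alternative. The difference between Null and Null+EZH2 ESCs was 1.03-fold, with an interval from 0.815 to 1.29. Relative to Het ESCs the log2 fold change in Null ESCs was -0.36 (adjusted p = 0.13 in limma, and 0.014 with the replicate block). LMLN (r = 0.98), SERINC1 (r = 0.96) and ASAP2 (r = 0.95) followed PEG10 most closely.

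SNRPN encodes a small nuclear ribonucleoprotein of the Prader-Willi region and runs on the plus strand of chromosome 15 from 24823647 to 24978723. It was the most abundant member per length, at 119 RPM per kb of merged exon in WT ESCs, ahead of MEST at 29.8, PEG10 at 18.4 and DLK1 at 16.9 RPM per kb. Its levels were 404, 349 and 467 RPM in WT, 538, 537 and 571 RPM in Het, 280, 254 and 329 RPM in Null, and 392, 425 and 547 RPM in Null+EZH2 libraries. The 3 Null libraries were the lowest of the 12. SNRPN was thus lower in Null ESCs by 1.92-fold relative to Het (adjusted p = 0.0019 in limma), 1.57-fold relative to Null+EZH2 (adjusted p = 0.048 in limma) and 1.41-fold relative to WT ESCs (adjusted p = 0.034 in limma). The first call held under every alternative. The call against Null+EZH2 was lost without any 1 of the 6 libraries (adjusted p from 0.058 to 0.25), and that against WT without WT library 1 or 3 or Null library 1 or 2 (0.08 to 0.14). With RPM rescaled by the median ratio, neither of these calls remained. In Het relative to WT ESCs SNRPN was at a log2 fold change of 0.44 (adjusted p = 0.32 in limma, and 0.043 with the replicate block).

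SNURF and SNHG14 overlap SNRPN on the same strand, so the counting could assign the same reads to more than 1 of them. SNURF had r = 1.00 with SNRPN and fell by 0.63 on the log2 scale relative to Null+EZH2 ESCs (adjusted p = 0.043 in limma). SNHG14 fell by 0.79 relative to Het ESCs (adjusted p = 0.013 in limma), and relative to Null+EZH2 ESCs it passed with the block alone (adjusted p = 0.024). CHST4 (r = 0.98) and CKMT1B (r = 0.92) came next in likeness to SNRPN.

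MEST, a hydrolase-like protein of the mesoderm, runs on the plus strand of chromosome 7 from 130486171 to 130506296. It was at 129 to 156 RPM in WT, 127 to 135 RPM in Het, 112 to 182 RPM in Null and 103 to 121 RPM in Null+EZH2 libraries. The Null range enclosed those of WT and Het ESCs. No comparison passed: the log2 fold change in Null ESCs was 0.03 relative to WT (adjusted p = 0.89 in limma), with an interval of the fold from 0.801 to 1.31, and 0.41 relative to Null+EZH2 ESCs (adjusted p = 0.22 in limma, and 0.046 without Null library 1). FAM46A, AQP1 and CDH11 were most like it (r from 0.89 to 0.92). COPG2, which overlaps MEST on the opposite strand and is read into the same unstranded counts, fell by 0.90 in Null relative to WT ESCs (adjusted p = 0.0068 in limma).

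NNAT, a membrane proteolipid of the developing brain, lies on the plus strand of chromosome 20 from 37521215 to 37523693, within the span of BLCAP on the other strand. It had 2 to 31 reads per library, 0.0799 to 0.612 RPM, and passed in no comparison. Its interval in Null relative to WT ESCs ran from 0.625 to 2.66-fold, so that smaller changes were not detectable at this depth. The genes most like NNAT were STK35, AUTS2 and CTB-59C6.3 (r from 0.91 to 0.92). BLCAP, at 27.2 to 31.4 RPM in WT and 47.6 to 51.1 RPM in Null libraries, rose by 0.75 on the log2 scale (adjusted p = 0.00071 in limma) with no overlap between the libraries.

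PEG3, a zinc finger protein on the minus strand of chromosome 19 from 56810083 to 56840728, had 0 reads in each of the 12 libraries, which allows up to 0.0528 to 0.12 RPM by library. It was not tested. ZIM2 and MIMT1 at the same locus were listed at 0 reads in every library as well.

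H3K27me3 in Null ESCs was far below its WT level at IGF2, DLK1 and PLAGL1, lower at MEST and MEG3, and not lower at the other 5 members. The ChIP-seq values are RPM in windows reaching 2.5 kb to either side of a start site, and each gene is given by its window with the most H3K27me3 in WT ESCs. In Null relative to WT ESCs, H3K27me3 dropped to 0.5 of its level or less (a log2 change of -1 or lower) at 5 of the 10 members and was higher at the other 5. Over all gene names it fell that far at 48.0%, a share near that of the members, and the median change was -0.94. The median change of the members was -0.56. With 1 column for each genotype there is no replicate check and no test, and a floor of 3 reads corresponded to 0.199 to 0.329 RPM in the H3K27me3 columns. The 97 windows formed 33 clusters with start sites within 1 kb, of which 20 dropped that far and 11 were higher. All clusters of IGF2, DLK1, PLAGL1 and MEST dropped that far, 4 of 6 did so at MEG3, and none did at the other 5 genes. Of the clusters that dropped, a MEST cluster (1.12 RPM, input 1.98 RPM) and a PLAGL1 cluster (1.77 RPM, input 2.31 RPM) were already below the input in WT ESCs. Windows of neighbouring clusters can overlap and share reads, and the share over the clusters of all genes was not computed.

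IGF2, DLK1 and the upstream promoter of PLAGL1 carried the most H3K27me3. IGF2 was at 40.3 RPM in WT, 47.3 in Het, 2.59 in Null and 41.1 RPM in Null+EZH2 ESCs, 35.3 times the input of WT ESCs and 1.56 times that of Null ESCs. Its 4 clusters fell by 3.59 to 4.63 on the log2 scale. EZH2 itself was at 8.54 RPM there, against a median of 0.29 RPM over all gene names. DLK1 was at 15.8 RPM in WT, 20.7 in Het, 0.971 in Null and 18.3 RPM in Null+EZH2 ESCs. At the upstream promoter of PLAGL1, shown above, H3K27me3 was at 21.3, 25.1, 0.69 and 21.3 RPM in the same order, a log2 difference of -4.76 in Null relative to WT ESCs. The inner promoter with the hexamer was at 6.03 RPM in WT and 1.27 RPM in Null ESCs, a difference of -2.16. In Null+EZH2 ESCs the log2 difference from WT ESCs was 0.03 at IGF2, 0.21 at DLK1 and 0.00 at PLAGL1.

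MEST and MEG3 carried less. MEST was at 7.95 RPM in WT, 8.09 in Het, 1.65 in Null and 7.46 RPM in Null+EZH2 ESCs. MEG3 was at 3.83, 2.89, 1.59 and 3.17 RPM, where the input was at 1.06 to 1.68 RPM. The cluster of MEG3 that holds the promoter shown above was at 3.07 RPM in WT and 2.3 RPM in Null ESCs, a log2 difference of -0.40, while that farthest upstream fell by 1.84.

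At H19, PEG3, PEG10, SNRPN and NNAT the RPM of H3K27me3 were not lower in Null than in WT ESCs. H19 was at 4.55 RPM in WT, 4.88 in Het, 4.88 in Null and 4.17 RPM in Null+EZH2 ESCs, 3.61 times the input in WT and 4.47 times in Null ESCs, from about 41 and 67 reads per library. Its other cluster, with 11 of the 12 windows of H19, was at 2.13 RPM in WT and 2.8 RPM in Null ESCs. These values rest on about 19 and 39 reads per library. PEG3 was at 3.59 RPM in WT and 4.9 RPM in Null ESCs, 4.11 and 4.61 times the input. PEG10 was at 2.06 and 2.44 RPM, SNRPN at 1.8 and 2.96 RPM and NNAT at 1.89 and 2.33 RPM in WT and Null ESCs. The SNRPN and NNAT values rest on about 16 and 17 reads per library in WT ESCs, and at 1.43 and 1.63 times the input they were close to it. Across all gene names the median was 1.96 RPM in WT and 0.865 RPM in Null ESCs. RPM are relative to the reads of each library, so a fall at many windows raises the RPM of others. What part of the values at these 5 genes comes from that was not tested, so they do not show whether the mark was kept. The paper reports that promoters of Null ESCs lost H3K27me3 completely, and that immunofluorescence for it was at background.

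**Figure D3:**
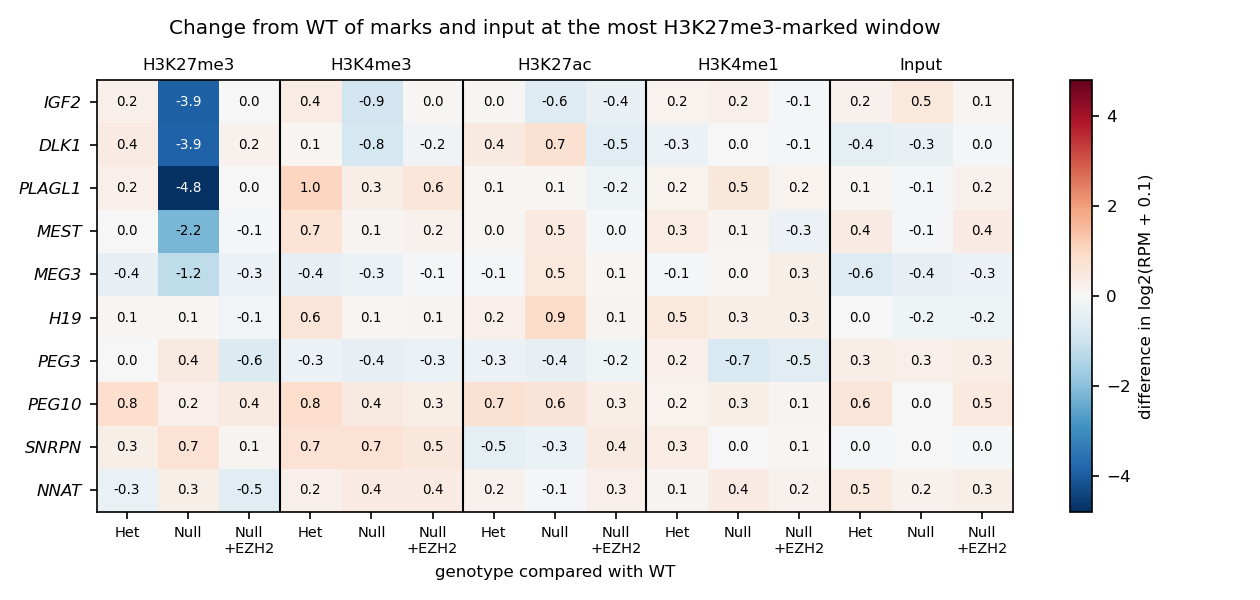
Difference from WT in log2(RPM + 0.1), as colour and number, for 4 histone marks and input at the window with the most WT H3K27me3 of 10 imprinted genes (rows) in Het, Null and Null+EZH2 ESCs (columns). Each cell is a difference between single columns of the authors. The 5 cells below -1 are all H3K27me3 in Null ESCs.

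H3K4me3 is the mark of active and poised promoters. At the window of each gene with the most WT H3K27me3 it changed by less than 1 on the log2 scale in Null relative to WT ESCs at all 10 members, with a median of 0.11, and over all gene names 12.6% fell and 2.47% rose that far. At IGF2 H3K4me3 was at 7.72 RPM in WT and 4.09 RPM in Null ESCs, a difference of -0.90, and at DLK1 at 8.78 and 4.9 RPM, a difference of -0.83. At SNRPN it was higher in Null ESCs, by 0.71. Of the 33 clusters of start sites, H3K4me3 fell by 1 or more at 8, which were 3 of 6 at PLAGL1, 2 of 6 at MEG3, 2 of 3 at PEG3 and 1 of 4 at IGF2. The largest of these differences, -2.40, was at a PLAGL1 cluster with 10.5 RPM in WT and 1.92 RPM in Null ESCs. Some of the 8 were as low in Null+EZH2 ESCs. Relative to WT ESCs they were there at -0.89, -0.09 and -2.17 (PLAGL1), -1.58 and -1.17 (MEG3), -1.46 and -0.28 (PEG3) and -0.49 (IGF2). Over all gene names H3K4me3 fell by 1 or more relative to WT ESCs at 16.4% in Het and 11.5% in Null+EZH2 ESCs. In Null relative to Null+EZH2 ESCs it did so at 0.947%. The H3K4me3 column of WT ESCs was the least deep, with a floor of 3 reads at 0.876 RPM, which limits its precision.

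H3K27ac, a mark of active promoters and enhancers, changed by under 1 at those windows and at all 33 clusters. It was at 1.98 RPM in WT and 3.72 RPM in Null ESCs at H19, a difference of 0.88, and at 1.53 and 2.61 RPM at DLK1, a difference of 0.73. At IGF2 it was at 0.874 and 0.538 RPM. The median change of H3K27ac was 0.27 for the members and 0.31 for all gene names. PEG3 stood apart in WT ESCs with 0.234 RPM of H3K27ac and 0.261 RPM of H3K4me1, both at or under the floor of 3 reads, where the medians over all gene names were 2.04 and 2.64 RPM and its input was at 0.874 RPM.

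RNA and H3K27me3 went together in some members and apart in others. IGF2 lost H3K27me3 and rose in Null ESCs. DLK1 and PLAGL1 lost H3K27me3 as well, and their RNA was lower than in WT ESCs both without the mark and after its return in Null+EZH2 ESCs. In Het ESCs their H3K27me3 was at 20.7 and 25.1 RPM, not below WT ESCs. The RNA log2 fold changes in Het relative to WT ESCs were -3.50 for DLK1, which did not pass, and -1.83 for PLAGL1, which did. MEST lost the mark with no RNA difference that passed. The RPM of H3K27me3 were not lower at H19, which rose, or at SNRPN, which fell and was close to the input.

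Other imprinted genes were read from a list of 53, of which 49 were in the table and 42 were tested. In Null relative to Null+EZH2 ESCs 6 of these rose and 1 fell (16.7%, against 3.15% of all genes), with a median log2 fold change of 0.20, and 12 passed with the replicate block, where 9.4% of all genes did. Relative to WT ESCs 7 rose and 9 fell (38.1%, against 31.4% of all genes), with a median of -0.16. With the block 21 passed, where 45.3% of all genes did. Relative to Het ESCs 7 rose and 6 fell, where 18.5% of all genes passed, and 20 passed with the block, where 32.5% of all genes did. In Het relative to WT ESCs 1 fell, where 1.15% of all genes passed, and 4 passed with the block, where 2.88% of all genes did. In Null+EZH2 relative to WT ESCs 1 rose and 3 fell (9.52%, against 10.3% of all genes). With the block 10 passed there, where 22.4% of all genes did. H3K27me3 dropped to 0.5 or less at 27 of the 49 in Null relative to WT ESCs, with a median change of -1.22, against 48.0% and -0.94 over all gene names. The list is not separate from the members. INS-IGF2, among the 6 that rose relative to Null+EZH2 ESCs, and SNURF, the 1 that fell, overlap members on the same strand and can share their reads. Among the 49, SNURF had the H3K27me3 values of SNRPN, and IGF2-AS, which dropped, overlaps IGF2.

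At the loci of the members, PHLDA2, a growth-restraining placental gene of 11p15, rose from 1.49 to 2.38 RPM in WT to 11.1 to 21.1 RPM in Null libraries (log2 2.99, adjusted p = 0.00014 in limma), and its H3K27me3 was at 21.1 RPM in WT and 0.782 RPM in Null ESCs. It was at 3.36 to 5.25 RPM in Null+EZH2 libraries. Its neighbour CDKN1C, a cell cycle inhibitor, also lost H3K27me3 (10.2 to 0.574 RPM) but passed in no RNA comparison without the block (adjusted p = 0.023 with it in Null+EZH2 relative to WT ESCs, limma). KCNQ1 fell by 0.94 relative to WT ESCs (adjusted p = 0.03 in limma), and KCNQ1OT1 (0.69) and SLC22A18 (-0.61) passed there with the replicate block alone (adjusted p = 0.0072 and 0.03 in limma).

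At 14q32, DIO3, at the end of the domain opposite DLK1, was above its WT level in Null ESCs, whereas DLK1 was below. DIO3, which inactivates thyroid hormone, was at 0.437 to 0.666 RPM in WT, 2.11 to 9.37 RPM in Null and 0.18 to 0.48 RPM in Null+EZH2 libraries, with a log2 fold change of 3.45 relative to Null+EZH2 ESCs (adjusted p = 0.0044 in limma). Its H3K27me3 was at 37.5 RPM in WT and 4.21 RPM in Null ESCs. DIO3OS rose as well relative to Null+EZH2 ESCs (adjusted p = 0.022 in limma), but not relative to WT ESCs. It was at 0.386 to 0.713 RPM in Null and 0.488 to 0.659 RPM in WT libraries. RTL1, a retrotransposon-derived gene between MEG3 and DIO3, was lower than in WT ESCs in all 3 other genotypes, by 2.30 on the log2 scale in Het (adjusted p = 0.038 in limma) and by 1.64 in Null ESCs (adjusted p = 0.02 in limma). In Null+EZH2 ESCs it was under the floor, at 0 to 0.04 RPM (adjusted p = 0.0013 in limma). MEG9 did not pass.

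Of the other genes at 15q11, MAGEL2, NDN, NPAP1, PWRN1, UBE3A and ATP10A passed in no comparison without the block. With it MAGEL2 and ATP10A passed in Null relative to WT ESCs (adjusted p = 0.026 and 0.049 in limma), MAGEL2 in Null+EZH2 relative to WT ESCs (0.015) and NDN in Null relative to Het ESCs (0.028). At 7q21 PPP1R9A fell by 1.25 relative to WT ESCs (adjusted p = 0.021 in limma) and SGCE passed with the block alone (adjusted p = 0.02). At 7q32 CPA4 passed relative to Het ESCs with the block alone (adjusted p = 0.046 in limma), and at 19q13 ZNF331 fell by 0.57 relative to WT ESCs (adjusted p = 0.01 in limma). IGF2-AS, INS, MEG8, MKRN3, KLF14, ZIM2 and MIMT1 were under the filter on low values. Elsewhere in the genome the largest calls of the list were FAM50B (log2 3.58, adjusted p = 5.9e-05), DDC (2.46, adjusted p = 0.00019) and LRRTM1 (1.89, adjusted p = 0.0072), which rose (DDC and FAM50B were at or near the floor in WT ESCs, so that their values depend on the pseudocount), and ZDBF2 (-1.75, adjusted p = 0.014), GPR1 (-1.33, adjusted p = 0.042) and L3MBTL1 (-1.20, adjusted p = 0.0037), which fell in Null relative to WT ESCs in limma. NAP1L5 rose by 1.03 relative to Het ESCs (adjusted p = 0.012 in limma), and GNAS-AS1 fell by 1.01 in Null+EZH2 relative to WT ESCs (adjusted p = 0.034 in limma).

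Of 10 factors that act in keeping imprints, 3 rose in Null relative to WT ESCs, where 12.6% of all genes rose, and 6 passed with the replicate block, where 45.3% of all genes did. DPPA3, which protects methylation in the zygote, was at 0 to 0.131 RPM in WT and 4.36 to 13.9 RPM in Null libraries (adjusted p = 9.4e-06 in limma), with 0.669 to 1.21 RPM in Null+EZH2 libraries. NLRP7, a maternal-effect gene, was at 1.57 to 2.29 and 11.6 to 38.7 RPM (log2 3.40, adjusted p = 5e-05 in limma). ZFP57 was at 0.0254 to 0.0444 RPM in WT, within the floor, and 0.493 to 0.638 RPM in Null libraries (adjusted p = 0.0025 in limma). TRIM28 (0.49), SMCHD1 (-0.45) and ZNF445 (-0.68) passed with the block alone (adjusted p = 0.032, 0.015 and 0.00087 in limma), and CTCF, DNMT1, UHRF1 and CTCFL did not pass in this comparison.

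Among 15 genes around IGF2 signalling, 12 were tested, and in Null relative to WT ESCs 2 rose and 2 fell (33.3%, against 31.4% of all genes). Relative to WT ESCs the binding proteins IGFBP7 (log2 1.60, adjusted p = 0.00074) and IGFBP4 (0.62, adjusted p = 0.043) rose and IGFBP2 (-1.01, adjusted p = 0.033) fell in limma, as did IGF2BP3, an IGF2 mRNA-binding protein (-0.49, adjusted p = 0.019). The receptors IGF1R, IGF2R and INSR passed in no comparison without the block. With it INSR and IGF1R passed in Null relative to Het ESCs (adjusted p = 0.026 and 0.047 in limma) and IGF1R in Het relative to WT ESCs (0.033). IGFBP5 was at 28.6, 108 and 32.2 RPM in Null and 6.12, 4.56 and 13 RPM in Null+EZH2 libraries (log2 2.68, adjusted p = 0.023 in limma), and at 67.3 to 161 RPM in WT libraries.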

How the data were processed

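Per the methods and labels, the authors trimmed reads with Trim Galore 0.4.0, aligned them to GRCh38 with TopHat2 2.0.12 (RNA-seq) or Bowtie2 2.2.5 (ChIP-seq), counted reads per gene without strand or non-duplicated reads in start site windows in SeqMonk, and deposited log2 RPM. Both tables were returned to RPM. Below 1000 reads, 100% of RNA-seq values were whole multiples of 1 read within 0.02 reads, and genes given 0.9 of 1 read by the authors were set to 0.

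RNA-seq was tested with limma 3.58.1 in R 4.3.3 (lmFit, eBayes with trend, two-sided) with the 12 libraries in 1 fit on log2(RPM + 0.1). Genes averaging under 0.1 RPM were left out, which kept 20608 of 35805, and p values were adjusted by Benjamini-Hochberg over the kept genes with a threshold of 0.05. This replaces the count test of the study, since the unit is log2 RPM. The pseudocount understates changes of low genes. ChIP-seq differences used log2(RPM + 0.1) with no test. Fits were tried on simulated counts in which libraries with the same number did not deviate together, so that trial does not cover the pattern given below.

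Library numbers recur in each genotype, and libraries with the same number deviated together from their genotype means (r from 0.13 to 0.69 in 18 of 18 pairs). The replicate block is therefore given where it changes a call. Deviations cancel within a genotype, so the mean of -0.20 for other pairs follows from those values and is not a separate contrast.

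Alternatives were another pseudocount, another filter or none, median ratio scaling, the replicate block, limma-voom on recovered reads, a fit of only the genotypes compared, leaving out each library, and for ChIP-seq another window or centring. The members and gene lists were chosen with earlier results of these data known. Named genes are the members, listed imprinted genes at their loci, up to 8 further listed imprinted genes with the largest change among those called, called genes of the lists of imprint maintenance and IGF signalling, and for each member the 3 genes with the highest r. Merged exon lengths came from GENCODE release 44, and promoters from RefSeq.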

Additional observations from a re-analysis of the deposited data

How the results depend on the processing

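The 45 results of members (9 genes in 5 comparisons) were refitted 575 times with 1 choice changed. Of these refits, 66 lost a call, 5 gained one, 0 reversed one and 504 changed no call, while 14 values that were not called changed sign. PLAGL1, PEG10 and DLK1 in Null and Null+EZH2 relative to WT ESCs, and H19, IGF2 and SNRPN in Null relative to Het ESCs, passed in every refit. Against Null+EZH2 ESCs the count of members called in Null ESCs, 3, became 1 with a mean of at least 1 RPM, 1 with limma-voom on recovered reads, 1 with only the 2 genotypes compared and 0 with no filter on low values. It ran from 0 to 3 with 1 library left out, and was 0 without Null library 2 or 3 or Null+EZH2 library 1 or 2. Against WT ESCs the count, 7, became 3 with no filter and ran from 3 to 6 with 1 library left out, at 3 without WT library 1 or 3 or Null library 2. In Het relative to WT ESCs the count, 1, became 0 with no filter, 0 with median ratio scaling, 0 with only the 2 genotypes compared, and 0 to 1 with 1 library left out, the single call being DLK1 in place of PLAGL1 without Het library 3. With the replicate block that count became 3 (DLK1 and SNRPN were added), PEG10 passed in Null relative to Het ESCs, and no other call of a member changed. No filter leaves more genes in the fit, and the cause of the other losses was not tested. The count of 5 members whose H3K27me3 dropped to 0.5 or less became 4, without MEG3, with a pseudocount of 1 RPM or centred on the median of all gene names, which takes that median as unchanged, and was 5 with either other window. Depth limits MEG3 and NNAT, with at most 87 and 31 reads per library.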
